A study of Mus musculus with 3 samples.

Results

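In epithelial cells of the fetal mouse small intestine, 1981 autosomal regions had high-scoring ATAC-seq peaks in the control and both HNF4 double knockout libraries. These regions were chosen by rule from 33564, made by merging peaks of the 3 deposited lists that shared at least 1 bp. A region was kept if it lay on chromosomes 1 to 19, held a peak in all 3 lists, and had a highest score at percentile 80 or above among the regions of each library. Of the 32725 autosomal regions, 10120 held a peak in all 3 lists and are called shared regions here. The 1981 chosen ones, called strong shared regions, were 19.6% of these (Wilson 95% interval 18.8 to 20.4%) and 6.05% of all autosomal regions. The other 8139 shared regions fell under percentile 80 in at least 1 library and serve as the comparison.

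The study asked which open chromatin depends on the HNF4 factors at stage E16.5. It used ATAC-seq on 20000 cells per library, taken with magnetic beads against EpCAM, a surface protein of epithelial cells. The 1 control library has the genotype Hnf4gCrispr/+, with 1 mutant copy of Hnf4g, and its label names no Cre and no floxed allele. The 2 double knockout (DKO) libraries, replicate 1 (DKO 1) and replicate 2 (DKO 2), are Shh-Cre; Hnf4af/f; Hnf4gCrispr/Crispr. Shh-Cre removes floxed DNA in cells with a history of Shh expression, which in the gut are those of the endoderm, so the design removes Hnf4a from the epithelium, whereas the CRISPR allele of Hnf4g is present in all cells. All 3 libraries therefore carry at least 1 mutant copy of Hnf4g. The labels do not say whether a library came from 1 embryo or from several.

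ATAC-seq marks DNA that the Tn5 transposase can reach, which is mostly DNA free of nucleosomes. The sites that are open in nearly every cell type are typically promoters of broadly used genes and sites bound by the insulator protein CTCF, while enhancers tend to be open in particular tissues. HNF4A and HNF4G are nuclear receptors that bind DNA as dimers and switch on enterocyte genes of fat handling and the brush border. A second class of strong signal is technical: repeats that are collapsed in a genome assembly, satellite DNA and nuclear copies of mitochondrial DNA gather reads from many places, and lists of such artefact loci are kept for the mouse genome. They include satellite repeats on chromosomes 2, 9 and 12 and a nuclear copy of mitochondrial DNA on chromosome 1. The deposited peak lists are on the assembly mm9, per the submitters' processing notes. A gene table, a genome sequence and a list of artefact loci on that assembly were not used here, so regions are named by position, and no promoter, gene, sequence or artefact class is assigned to any of them. For the same reason the epithelial identity of the cells could not be checked against its marker genes.

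The list lengths were 16977 peaks for the control, 18268 for DKO 1 and 26648 for DKO 2. Each peak is a window of 601 bp with an integer score of unstated meaning, so scores were ranked within a library. Sequencing depth is unknown. The threshold fell at a score of 31 in the control, 38 in DKO 1 and 36 in DKO 2. By construction it kept about the same share of autosomal regions in each library, at 20.5%, 20.9% and 19.8%. The scores and percentiles of the strong shared regions chose them, so these are described and not tested.

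Most strong shared regions were only moderately above the typical peak. They scored a median of 41 in the control (quartiles 35 and 49), 56 in DKO 1 (47 and 68) and 57 in DKO 2 (47 and 68). These medians were 1.95, 2.33 and 2.59 times the median score of all peaks in the same library. The median percentile was 92.8 in the control, 93.8 in DKO 1 and 95.2 in DKO 2. Few scores lay far out: 785 of the 1981 regions reached 2 times the library median in every library, 130 reached 3 times, 41 reached 4 times, 28 reached 5 times and 12 reached 10 times.

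Within the chosen set a region's 3 percentiles could differ by at most 20 points, by the rule. The difference between the highest and the lowest had a median of 5.44 points and reached 18.3 points. The lowest of the 3 percentiles belonged to the control in 989 regions, to DKO 1 in 641 and to DKO 2 in 351. The same order runs from the shortest list to the longest, and the part of list length in it was not tested. With 16977 top-scoring peaks per library, 1650 regions passed, and the lowest percentile was in the control in 678, in DKO 1 in 447 and in DKO 2 in 525. The control stayed the library that most often ranked a region lowest, and the order of the DKO libraries turned around. All 1650 overlapped one of the 1981.

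The regions whose percentile ranged most show what the rule still admitted. A region on chromosome 14 from 9118917 to 9119521 scored 71 in the control, 68 in DKO 1 and 36 in DKO 2, and its percentiles ran from 99.3 down to 81.0. The lowest library was a DKO library, and the other DKO library lay close to the control. A region from 133054938 to 133055941 of chromosome 6 (57, 38 and 46 in the same order of libraries) was highest in the control, and so was one from 3754129 to 3754755 of chromosome 8 (56, 38 and 46). On chromosome 13, a region from 67209211 to 67210032 scored 43, 38 and 67, and a region from 93124558 to 93125269 scored 31, 61 and 72. Only the last of these 5 had the control well below both DKO libraries. The rule limits the same percentiles that picked these 5, so nothing about genotype can be read from them.

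At the edge of the set, scores that differ by 1 decide membership, because scores are whole numbers and tie. The regions just inside lay on chromosome 3 from 85377593 to 85378375 (scores 31, 38 and 36 in the control and DKO 1 and DKO 2), on chromosome 11 from 30886140 to 30886769 (31, 38 and 37) and on chromosome 9 from 24307179 to 24308096 (32, 38 and 36). Just outside were 3 regions at a score of 35 in DKO 2: 151670999 to 151671722 of chromosome 4 (42 in the control and 61 in DKO 1), 113882659 to 113883399 of chromosome 12 (44 and 54) and 173432841 to 173433759 of chromosome 1 (47 and 50). Ties were broken by the mean percentile, taking the lowest means inside and the highest means outside. The higher control and DKO 1 scores of the 3 outside follow from this choice. Those 3 missed the threshold through DKO 2. In all, 46 regions tied at the lowest admitted percentile, 80.03, and 19 tied at the highest one left out, 79.8.

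How far strength in some libraries carries over to a library that was not used for the choice can be measured by leaving each library out. Of the 3049 autosomal regions at percentile 80 or more in both DKO libraries, 65.0% (63.3 to 66.6%) also reached it in the control, where 20.5% of all regions do. Of the 2453 chosen in the control and DKO 2, 80.8% (79.2 to 82.3%) reached it in DKO 1. Of the 2124 chosen in the control and DKO 1, 93.3% (92.1 to 94.3%) reached it in DKO 2. The regions recovered were the same 1981 in each case, so the order of these shares only restates how many regions each pair chose. The share was lowest with the control left out. At 16977 peaks per library these became 73.9% (72 to 75.6%), 84.6% (82.9 to 86.1%) and 82.3% (80.5 to 83.9%), so the control stayed lowest and the gap narrowed.

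Complete absence of a peak in the library left out was rare but unevenly spread. Of the regions strong in both DKO libraries, 199 (6.53%, 5.70 to 7.46%) had no control peak. The corresponding counts were 24 (0.978%, 0.658 to 1.45%) for DKO 1 and 7 (0.330%, 0.160 to 0.679%) for DKO 2. At equal list lengths they were 115 (5.15%), 16 (0.821%) and 7 (0.349%). Where a peak was called, its median percentile in the full lists was 88.2 in the control, 91.5 in DKO 1 and 94.9 in DKO 2. At equal list lengths it was 91.1, 93.0 and 92.5, a narrower gap with the DKO libraries in the other order. Genotype and the properties of the single control library cannot be told apart here. No test was made, because the smallest p that exchanging the library labels exactly allows would be 1 in 3. The intervals cover counting error over regions only.

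The rule used window placement only in that the windows of a region form a chain of overlaps, which holds for all shared regions alike. The windows of 2 libraries in a region need not overlap each other, and control and DKO 2 centres lay up to 756 bp apart in strong shared regions. How closely the windows agreed differed between the strong shared regions and the rest. The centre of the highest window in each library was compared between libraries. In the strong shared regions the median distance between the control and DKO 1 centres was 49 bp (95% interval of the median 46 to 51 bp), that to the DKO 2 centres was 49 bp (46 to 53 bp), and that between the DKO libraries was 44 bp (40 to 46 bp). In the other shared regions the medians were 76, 76 and 66 bp. Centres in strong shared regions thus lay closer together in every pair of libraries, and those of the DKO pair lay closest in both groups.

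The same holds for the share of regions with closely placed centres. Centres of the control and DKO 1 lay within 50 bp in 51.7% of strong shared regions (49.5 to 53.9%), against 36.0% of the others and 39.1% of all shared regions. For the control and DKO 2 the share was 51.0% (48.8 to 53.2%), against 36.9% of the others and 39.7% of all. For the DKO pair it was 55.8% (53.6 to 58.0%), against 41.0% and 43.9%. Centres over 300 bp apart, about the distance from a window's centre to its edge, were found in 31, 24 and 17 strong shared regions for the 3 pairs (1.56%, 1.21% and 0.858%), against 6.29%, 6.29% and 3.85% of the others. Merged strong shared regions were correspondingly narrow, with a median width of 684 bp (680 to 688 bp) against 725 bp (723 to 728 bp).

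**Figure D1:**
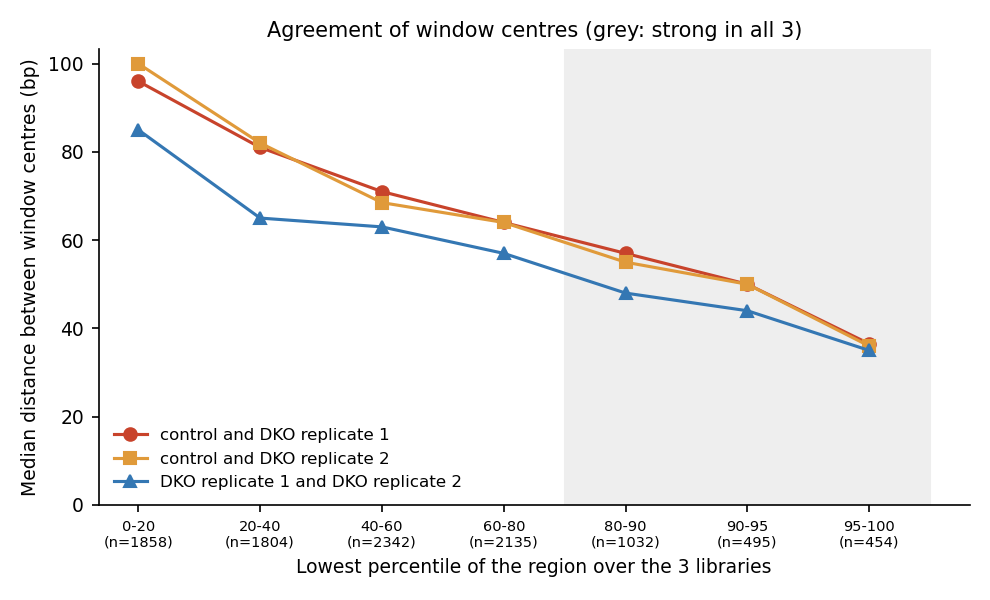
Median distance in bp between the window centres of each pair of libraries (y axis) for shared regions in bands of their lowest percentile over the 3 libraries (x axis, with the number of regions); the grey area covers the strong shared regions. The medians fall from 96, 100 and 85 bp in the weakest band to 36.5, 36 and 35 bp in the strongest.

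The plot of centre distances by band shows that the agreement rose steadily with rank and not in a step at the threshold. The median distance was 64, 64 and 57 bp for the 3 pairs in the band from percentile 60 to 80, just below the threshold, and 57, 55 and 48 bp in the band from 80 to 90. In the 454 regions whose lowest percentile was at least 95 it was 36.5, 36 and 35 bp, and there the control pairs and the DKO pair differed by under 2 bp. Bands were made from the scores of the same peaks whose centres are compared, and the depth behind each centre is unknown; its part in the trend was not tested.

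Strong shared regions were scattered along the chromosomes, at distances that depend on the size of the set. The median distance from one to the next was 548 kb (497 to 599 kb), against 86.5 kb for all 10120 shared regions. Of the 1981, 59 (2.98%, 2.32 to 3.82%) had another within 10 kb, in 28 pairs and 1 group of 3, and 1922 stood alone at that distance. With 25 kb the count was 179 (9.04%), against 30.6% of all shared regions with another shared region at that distance. The values of the strong shared regions moved when the control was left out. With the rule applied to the DKO libraries alone, 4.92% of 3047 regions had another within 10 kb and the median distance to the next was 315 kb. A smaller set is sparser by its size alone, so the distance to the nearest shared region of any strength is the fairer measure. It had a median of 44.2 kb (41.6 to 47.2 kb) for strong shared regions and 44.7 kb (43.3 to 45.7 kb) for the others. Strong shared regions within 10 kb of another shared region numbered 186 (9.39%, 8.18 to 10.8%), close to the 10.0% of all shared regions. Of these 186, 59 had another strong shared region within 10 kb, while strong shared regions were 19.6% of all shared regions. Whether close neighbours were strong more often than that share was not tested.

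**Figure D2:**
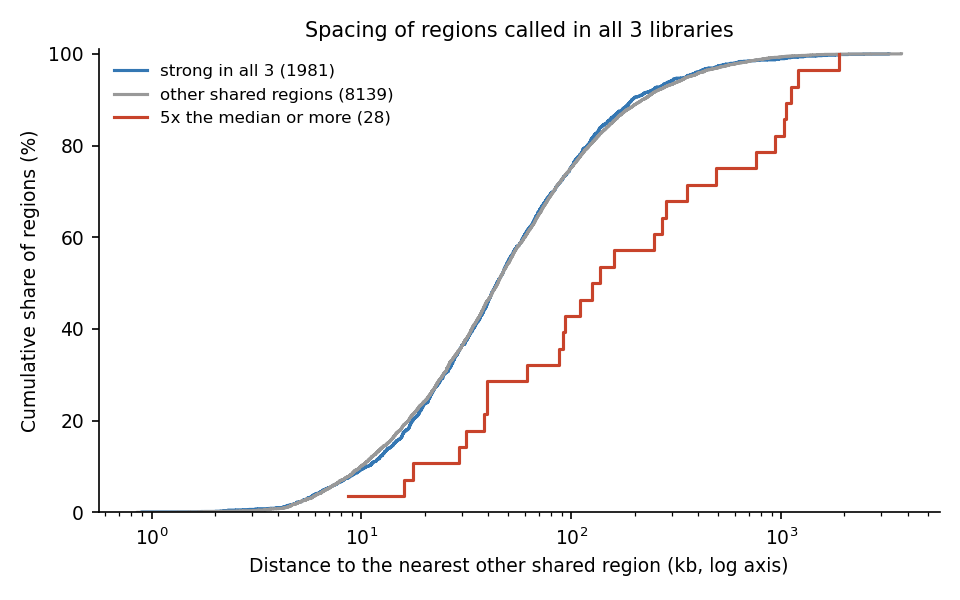
Cumulative share of regions (y axis, %) by distance to the nearest other shared region (x axis, kb, log axis) for strong shared regions, the other shared regions and the 28 strong shared regions at 5 or more times the median score of every library. The first 2 curves lie on each other, with medians of 44.2 and 44.7 kb, and the curve of the 28 lies to the right, with a median of 131 kb.

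Counting regions called in any library gave a small difference. The nearest such region lay at a median of 18.8 kb (17.7 to 20.02 kb) from a strong shared region and at 16.7 kb (16.1 to 17.2 kb) from the other shared regions. One was within 10 kb of 531 strong shared regions (26.8%, 24.9 to 28.8%) and of 31.0% (30 to 32.0%) of the others. The share with a close neighbour was low at both ends of the ranking. In the band from percentile 80 to 90, 11.1% (9.37 to 13.2%) had a shared region within 10 kb, which is near the 11.6% just below the threshold, whereas at percentile 95 and above 27 of 454 did (5.95%, 4.12 to 8.51%). In the weakest band of shared regions, under percentile 20, the share was 7.70% (6.57 to 8.998%). The median distance to the nearest shared region was 50.1 kb in the strongest band and 50.9 kb in the weakest.

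Groups of neighbours were small, and the group of 3 and the 2 pairs of shortest span among the 28 pairs are described here. The first, on chromosome 4 from 88440019 to 88452341, scored 48, 44 and 42 in the control, 57, 77 and 59 in DKO 1, and 55, 58 and 48 in DKO 2. The tightest pair, on chromosome 2 from 142726997 to 142729193, left 0.894 kb between its regions, which scored 38, 46 and 56 and then 40, 56 and 44 in the control and DKO 1 and DKO 2. The next pair, on chromosome 1 from 93352781 to 93356327, scored 51, 58 and 43 and then 43, 60 and 59. None of these 7 regions was near the top of the ranking, with lowest percentiles between 88 and 94.8.

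The group on chromosome 4 belonged to a longer array that stood out once regions of all libraries were included, and it was chosen for description after its values were seen. Between 88403345 and 88452341, 15 regions followed one another over 49 kb. Of the 14 distances between neighbouring centres, 13 lay between 2814 and 3049 bp, with a median of 2936 bp, and the remaining one was 10340 bp. By number of regions it was the largest of the 40 runs of at least 6 autosomal regions with gaps of at most 10 kb. The next by number, on chromosome 13 from 23622623 to 23678161, held 11 regions spaced from 1056 to 8986 bp apart and no strong shared region.

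Within this array the lists disagreed on which regions carried a peak. The control called 10 of the 15 regions, DKO 1 called 9 and DKO 2 called all 15. Scores ran from 23 to 48 in the control, from 47 to 77 in DKO 1 and from 29 to 58 in DKO 2. A peak was present in all 3 lists in 7 regions, and 6 of these were strong shared regions. The other, from 88409105 to 88409844, scored 23, 50 and 50 and fell short in the control only. Some regions had a peak in a single list. Those from 88434096 to 88434696, 88442860 to 88443460 and 88448793 to 88449393 were called in DKO 2 alone, at scores of 44, 52 and 58. No sequence was read here, so whether the array is repeated DNA was not tested. Without the array, 2.73% of strong shared regions had another within 10 kb.

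**Figure D3:**
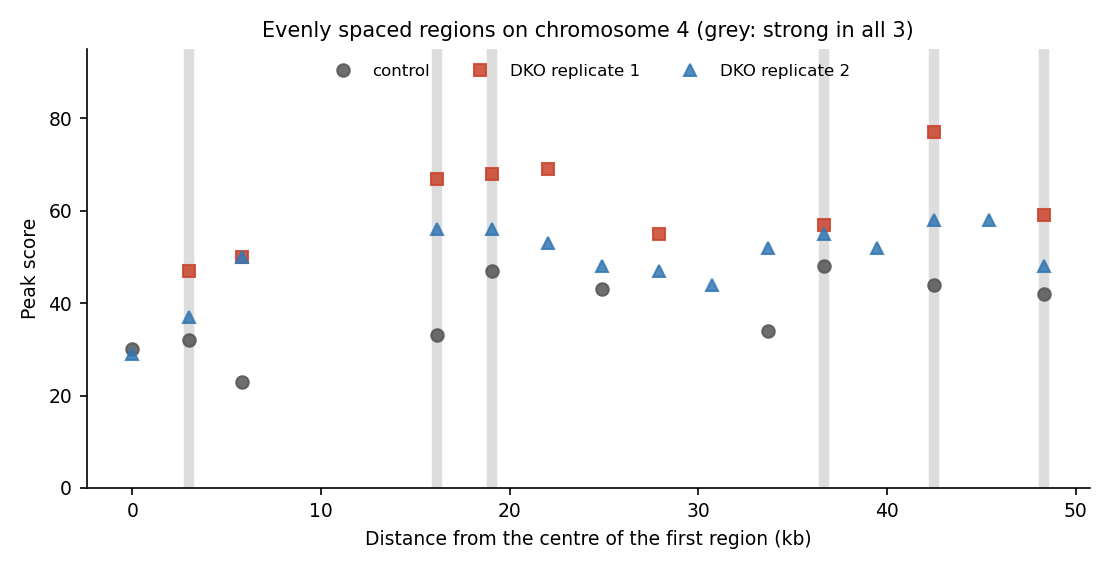
Peak score (y axis) of the control, DKO 1 and DKO 2 in the 15 regions of the chromosome 4 array, by distance in kb from the centre of the first (x axis); grey bars mark the 6 strong shared regions and a missing symbol means that no peak was called. The regions follow one another at 2814 to 3049 bp except for 1 step of 10340 bp.

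Strong shared regions were found on every autosome, at uneven shares of the shared regions there. The share was highest on chromosome 12, with 104 of 403 (25.8%, 21.8 to 30.3%), and on chromosome 7, with 180 of 734 (24.5%, 21.5 to 27.8%). It was lowest on chromosome 19, with 40 of 280 (14.3%, 10.7 to 18.9%), and on chromosome 15, with 59 of 367 (16.1%, 12.7 to 20.2%). The intervals of chromosomes 7 and 12 lay above the overall share of 19.6%, that of chromosome 19 lay below it, and chromosome 15 overlapped it. Chromosome 7 also had the most per length, with 1.18 per Mb up to its last region, and chromosome 15 the fewest, with 0.570 per Mb.

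**Figure D4:**
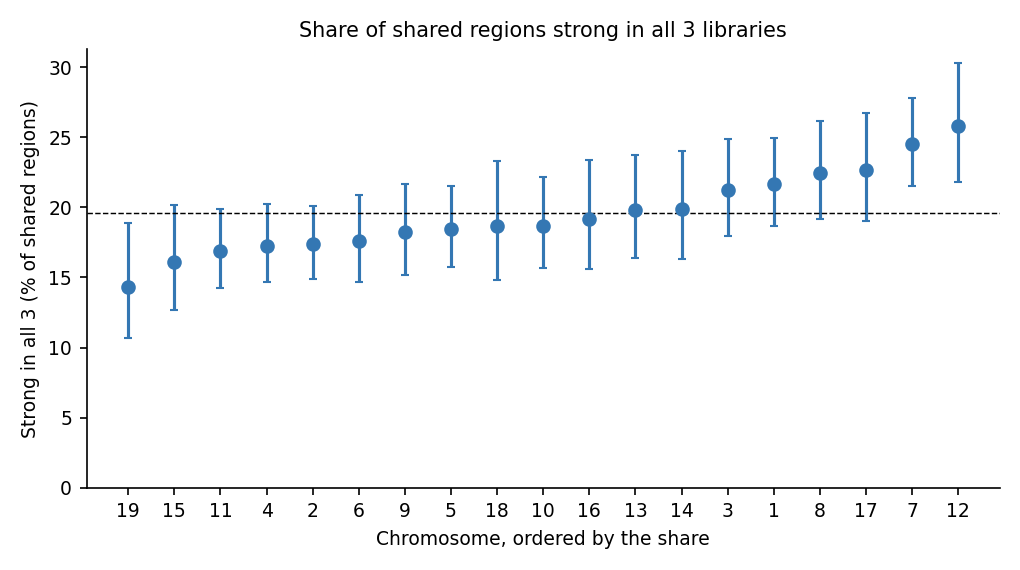
Share of shared regions that were strong in all 3 libraries (y axis, %) on each autosome (x axis, ordered by share), with Wilson 95% intervals; the dashed line is the share over all autosomes, 19.6%. Chromosomes 7 and 12 lie above the line with their intervals, and chromosome 19 lies below it.

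Chromosomes 7 and 12 were high in each library, whereas chromosome 19 was not low in each. On chromosome 7, regions at percentile 80 or more made up 25.9% of the control regions, 25.4% of those of DKO 1 and 23.8% of those of DKO 2. On chromosome 12 the shares were 25.2%, 23.6% and 22.1%. On chromosome 19 they were 13.6%, 20.3% and 14.4%, so DKO 1 was at its overall level there while the control and DKO 2 were low. On chromosome 15 they were 16.8%, 17.7% and 17.6%. With 3 libraries these differences were not tested.

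Along the chromosomes the density ranged widely. The fullest 1 Mb interval, on chromosome 10 from 80000001 to 81000000, held 11 strong shared regions among 25 shared ones. Those from 56000001 to 57000000 of chromosome 17 and from 86000001 to 87000000 of chromosome 8 held 10 each, among 22 and 17 shared regions. On chromosome 17 from 17000001 to 18000000, 9 of 10 shared regions were strong in all 3 libraries. The longest stretch without any, 12.8 Mb, began on chromosome 15 at 12754848, and only 4 shared regions lay in it. Another of the longest stretches without any, 10.9 Mb on chromosome 19 from 31157630, held 38 shared regions. The number of shared regions thus differed widely between such stretches.

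The highest scores were the end of a continuous tail. The 28 strong shared regions at 5 or more times the median score of every library, a limit set after the scores were seen, lay on 14 autosomes, with 4 on chromosome 12 and 3 each on chromosomes 2, 9 and 17. They scored a median of 263 in the control, 230 in DKO 1 and 207 in DKO 2, against 41, 55 and 57 in the remaining 1953. The groups overlapped in each library taken alone, since the remaining regions reached 179, 144 and 165 and the 28 started at 142, 124 and 118.

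The 5 strong shared regions of highest score had similar scores in the 3 libraries. On chromosome 2 from 98506642 to 98507246 the scores were 932 in the control, 906 in DKO 1 and 880 in DKO 2. On chromosome 9 from 35112652 to 35113331 they were 680, 679 and 648. On chromosome 2 from 22444914 to 22445517 they were 642, 648 and 671. The control value was above both DKO values at the first 2 places and below both at the third. On chromosome 12, a region from 98299459 to 98300061 scored 589, 596 and 611, and a region near the start of the chromosome, from 3109658 to 3110264, scored 490, 478 and 476.

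The next 5 by rank were more uneven. A region on chromosome 17 from 39980653 to 39981724 scored 440, 402 and 371, and its width of 1072 bp came from a DKO 1 centre 471 bp away from that of the control. A region on chromosome 6 from 103598893 to 103599494 scored 391, 361 and 368. On chromosome 11 from 108872886 to 108873500 the scores were 373, 298 and 230. Here the control exceeded both DKO libraries. On chromosome 5 from 60433914 to 60434515 the scores were 298, 296 and 329, and on chromosome 3 from 5860331 to 5860964 they were 286, 230 and 202. The last trio recurred almost exactly at a place on another chromosome, chromosome 12 from 68160091 to 68160753, with 281, 230 and 202.

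**Figure D5:**
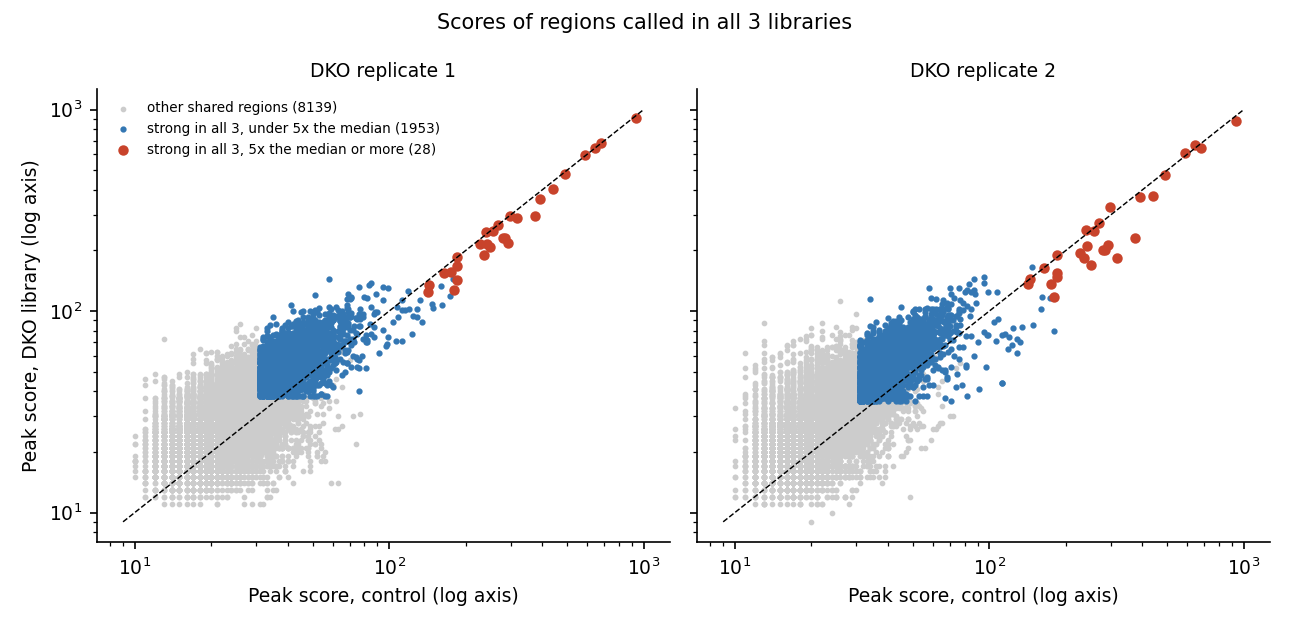
Peak score in each DKO library (y axis, log axis) against the control score (x axis, log axis) for the shared regions, with the 1953 strong shared regions under 5 times the library median and the 28 above it marked; the dashed line is equality. Most strong shared regions lie above the line, and the 28 lie near it, with the control score above both DKO scores in 20 of them.

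The balance between the libraries was another in the 28, as a description, since the same scores chose both groups and the limit differed by library (105 in the control, 120 in DKO 1 and 110 in DKO 2). The control score divided by the score of DKO 1 had a median of 1.09 in the 28 and 0.742 in the other 1953, and for DKO 2 the medians were 1.10 and 0.735. The control score exceeded both DKO scores in 20 of the 28 and in 82 of the 1953 (4.199%), while it did so in 11.1% of all shared regions and in 12.6% of those that were not strong in all 3. Because the scale of the scores is not stated, a ratio at low scores may not mean the same as one at extreme scores.

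The 28 also differed from the rest in position. They are the top of the ranking along which centre distances fell, and the part of score or depth in the following values was not tested. Their window centres lay a median of 3.5 bp apart between the control and either DKO library and 4 bp apart between the DKO libraries, against 49, 50 and 45 bp in the other 1953. All 3 centres fell within 10 bp of one another in 15 of the 28 (53.6%) and in 91 of the 1953 (4.66%). On chromosome 13 from 85266481 to 85267081 the 3 windows were identical, at scores of 144, 135 and 145. The nearest shared region was a median of 131 kb away (61.5 to 357 kb), against 43.8 kb (41.5 to 46.6 kb) for the rest, and 1 of the 28 had a shared region within 10 kb. Whether they are repeats or other artefact loci was not tested.

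Leaving out these 28 hardly moved the description of the set. The median distance from one strong shared region to the next became 548 kb without them as well, the share with another within 10 kb became 2.92%, and the median centre distances became 49, 50 and 45 bp. The share of the set that they make up is 1.41%.

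Some of the highest scores in the lists failed the rule. Of the 30 highest-scoring regions of each library, 27 in the control, 27 in DKO 1 and 26 in DKO 2 were strong shared regions. The top peak of every list lay on chromosome 1 within a stretch of 3559 bp from 24618396, but not in the same place. It was at 24618396 to 24618996 in the control with a score of 965, at 24619941 to 24620541 in DKO 2 with 976, and at 24621354 to 24621954 in DKO 1 with 958. The gaps between these windows were 944 and 812 bp, so they stayed 3 separate regions, each called in 1 list. The 3 lists therefore had nearly equal top scores at 1 locus that the overlap rule counts as differing.

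High scores also failed the rule at 2 more autosomal places. Next to the highest strong shared region on chromosome 2, a window from 98502441 to 98503041 scored 764 in the control and 684 in DKO 2, and DKO 1 had no peak there. On chromosome 8 a window from 19784428 to 19785028 scored 270 in DKO 2 and was called in no other list. The remaining exceptions were regions of chromosome X, which the rule leaves out.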

How the data were processed

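ATAC-seq peak lists of 3 libraries were analysed. The submitters' processing notes name mm9, FastQC 0.11.3, Bowtie2 2.2.6, deepTools 2.4.2 and MACS 1.4.1 without their roles; thresholds, duplicate handling, read shift and removal of artefact loci are not given in the sources used here. The authors deposited 1 list per library, not pooled, with a score per peak whose scale is not stated. A peak called or not called can depend on depth, which is unknown.

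Lists were merged in Python 3.11.15 with pandas 2.3.3, checked against bedtools 2.31.1 and tested on simulated data. Tied scores shared their mean rank. Each percentile was taken over all regions of the library. Distances between regions are edge to edge, starts are 1-based. Shares carry Wilson 95% intervals and medians exact order-statistic 95% intervals (scipy 1.17.1); both cover counting error over regions, which are not replicates. No test was made.

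The only gene and promoter tables at hand were on GRCm38, and peaks on 10 of 21 chromosomes lie past its last gene, by up to 7.17 Mb, so promoter shares, gene lists and motifs were not analysed here. Regions and lists were chosen with earlier results of these data known. Individually described regions were the 10 of highest lowest percentile, the 5 of highest score, the 3 largest groups at gaps of 10 kb (ties by shortest span), the 3 on either side of the threshold and the 5 of widest percentile range.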

Additional observations from a re-analysis of the deposited data

How the results depend on the processing

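With 16977 peaks per library, strong shared regions made up 18.3% of shared regions, their median spacing was 693 kb, and recovery in the library left out was 73.9% (control), 84.6% (DKO 1) and 82.3% (DKO 2). Percentile 90 gave 949 regions (9.38% of shared), a spacing of 1384 kb, 1.37% within 10 kb of another, centre distances of 43, 43 and 39 bp (control with DKO 1 and DKO 2, DKO pair), and recovery of 67.1% in the control and 91.3% in DKO 2. Percentile 70 gave 3040 regions (30.0%), 320 kb, 4.01%, and 54, 54 and 47 bp. The counts, shares and spacings follow by construction from the percentile; the cause of the other shifts was not tested. Windows of 200 bp gave a share of 21.3%, and a distance of 25 kb gave 9.04% with a neighbour. Leaving out each library in turn gave 2122 to 3047 regions, 19.9 to 20.7% of shared regions, a spacing of 315 to 500.2 kb, 3.16 to 4.92% within 10 kb, and centre distances of 46 to 49 bp; only the absence of the control moved values by over 1.5 times (3047 regions, 315 kb and 4.92%). Autosomal percentiles moved none of the 7 results recomputed beyond its interval or, for the count, 1.5 times. Lowest ranks for ties, run for the count alone, gave 1838 regions. Chosen after the data had been seen, leaving out the 28 extreme regions moved none of 6 results, and leaving out the chromosome 4 array, run for the share within 10 kb alone, gave 2.73%. In each alternative with all 3 libraries the DKO pair had the smallest centre distance, and recovery was lowest in the control wherever it was recomputed. No paired analysis was possible because there was a single control library, whose title links it to neither DKO library. The alternatives for promoter share were not run. Unknown depth limits every statement on a missing peak.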

Other observations

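Chromosome X was outside the rule. Of its 234 regions with a peak in all 3 lists, 13 (5.56%, 3.28 to 9.27%) passed the same percentiles, below the 14.3% of the lowest autosome, chromosome 19. Regions at percentile 80 or more made up 9.07% of the X regions of the control, 9.54% of those of DKO 1 and 10.8% of those of DKO 2. The X regions that passed included 2 of very high score, from 73843939 to 73844638 with 204 in the control, 183 in DKO 1 and 200 in DKO 2, and from 139917299 to 139917904 with 168, 155 and 143. In both, as in most of the 28 extreme strong shared regions, the control score was above both DKO scores. The number of X chromosomes in the cells is not stated for any library.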
